A study of Sus scrofa with 8 samples.

Results

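The enzymes of the urea cycle, with the aspartate transaminases that supply it with nitrogen, were followed in the livers of 8 pigs. The members were chosen by name: every probe set whose only annotated symbol was CPS1, OTC, ASS1, ASL, ARG1, GLUD1, GLS2, GOT1 or GOT2. This gave 7 probe sets of 24123, 1 each for 7 of the 9 genes. No probe set carried GLUD1 (glutamate dehydrogenase) or GLS2 (liver glutaminase) as its only symbol, so these 2 are not analysed here. All 7 probe sets passed the filter on low values.

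The study compared 4 Korean native pigs (KNP), an indigenous breed, aged 7 months, with 4 Yorkshire pigs (YS), a commercial breed, aged 6 months. RNA was taken at the tip of each animal's largest liver lobe and measured on 1 Affymetrix porcine array, and all animals were kept under the same conditions. No treatment, transgene or deletion is named in the labels, and sex and the time since the last meal are not given there. Age follows breed, and their effects cannot be told apart.

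The urea cycle turns toxic ammonia into urea and runs at full length in hepatocytes. CPS1 joins ammonia and bicarbonate to carbamoyl phosphate in the mitochondrion, OTC transfers it to ornithine to make citrulline, and in the cytosol ASS1 adds aspartate, ASL splits the product into arginine and fumarate, and ARG1 releases urea and returns ornithine. The aspartate comes from the transaminases GOT2 in mitochondria and GOT1 in the cytosol, which also take part in the malate-aspartate shuttle. In the liver lobule the cycle is most active around the portal vein, while glutamine synthetase (GLUL) captures remaining ammonia around the central vein.

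Values are array intensities on a linear scale, whose median over the arrays lay between 152 and 179. On the scale log2(intensity + 16) all 7 enzymes lay among the brighter probe sets, from the percentile 94.4 of those tested (ASL) to 99.2 (CPS1). The highest signal of an array was 50730 to 60066 in KNP and 83646 to 95919 in YS, and neither the spiked controls nor the actin control ratio, 3' over 5' signal (2.68 to 6.45 in KNP, 8.39 to 11.8 in YS), overlapped between the breeds. Bright probe sets were lower in KNP with these, by a median of −0.39 where the log2 intensity averaged 14 to 15. The part of these array properties in the differences below was not tested. For the tissue itself, 10 of 10 hepatocyte markers had a probe set and none was at 0. Their summed intensity was 308949 to 366039 in KNP and 509203 to 537602 in YS. Of the 10 markers, 7 were called lower in KNP, where 0.611% of all probe sets tested were. The median difference of the 10 was −0.57, and −0.04 after quantile normalization. All 7 had a log2 intensity averaging 15 to 17. In that band 37 of 68 probe sets were called lower, and the median difference was −0.58. Fewer cells of a type, less RNA per cell and the array properties that follow breed cannot be told apart in these bulk tissue data.

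No enzyme of the set passed the threshold between the breeds. In the limma fit across 14399 probe sets, 0 of the 7 had a Benjamini-Hochberg adjusted p under 0.05, where 1.03% of all probe sets did. In KNP 61 probe sets (0.424%) were called higher and 88 (0.611%) lower, and 10 and 4 after quantile normalization. At an unadjusted p under 0.05 there was 1 of 7, CPS1, against 15.1% of all probe sets. The differences, KNP minus YS, had 4 positive and 3 negative signs and a median of 0.09, beside −0.01 over all probe sets tested. After quantile normalization 6 of the 7 were positive, with a median of 0.31 beside 0.0028 over all probe sets, and again 0 passed in limma (1 at an unadjusted p under 0.05, ASS1). Both signs occurred in both compartments: the mitochondrial CPS1 and OTC were negative and the mitochondrial GOT2 positive, and of the cytosolic enzymes ASS1, ASL and GOT1 were positive and ARG1 negative. The signs of CPS1 and ARG1 were those that turned after quantile normalization.

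**Figure D1:**
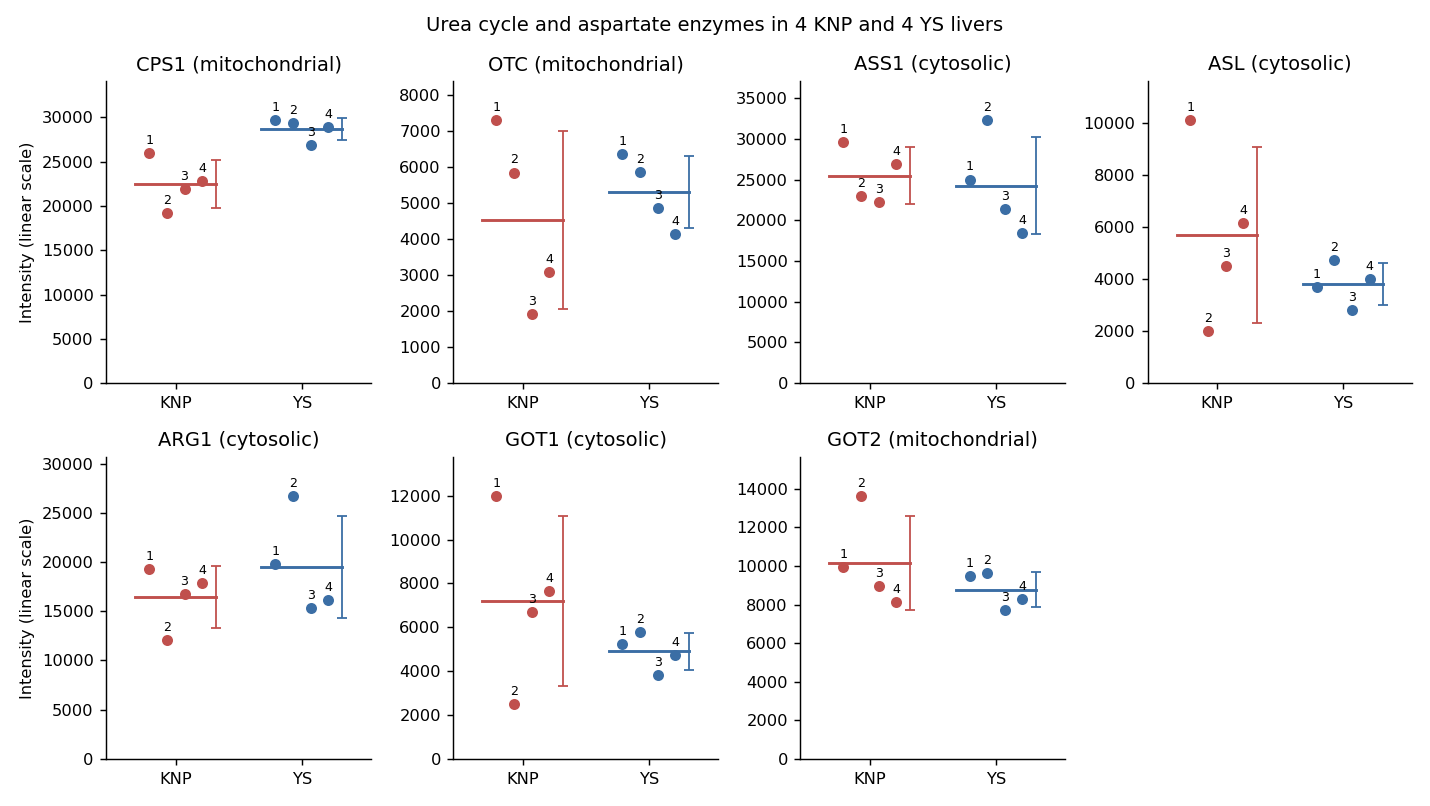
Intensity on a linear scale (vertical axis) of the 7 enzymes in each of 4 KNP and 4 YS livers; points are animals with their replicate number, lines are breed means and bars the SD. CPS1 is the panel in which the breeds do not overlap, and ASL and GOT1 show the widest KNP spread, with replicate 1 at the top and replicate 2 at the bottom.

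CPS1, the entry point of the cycle, was measured at 25931, 19259.5, 21897 and 22825 in KNP replicates 1 to 4 and at 29657, 29392, 26845 and 28873 in the YS replicates. All KNP values lay below all YS values, which makes CPS1 the 1 member of 7 without overlap, where 9.68% of all probe sets tested show none. The means were 22478 ± 2753 and 28692 ± 1273 (SD, n = 4 per breed), a log2 difference of −0.36 (SE 0.12, 95% interval −0.62 to −0.10), or 1.28-fold lower. With limma the p was 0.0119 before and 0.186 after adjustment, so the difference did not pass. In the brightness band of CPS1, with log2 intensity averaging 14 to 15, 94.0% of the 167 probe sets had a negative difference, and the middle 50% of them ran from −0.52 to −0.23, a range that holds the value of CPS1. After quantile normalization CPS1 stood at 0.05 (limma adjusted p = 0.883). Within each breed it varied little, with 1.35-fold between the highest and the lowest KNP animal and 1.10-fold between the YS animals.

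OTC, the second mitochondrial step, stood at 7306, 5858, 1915 and 3085 in the KNP animals and at 6385, 5869, 4864 and 4147 in the YS animals. KNP replicate 1 was the highest and KNP replicates 3 and 4 the lowest of the 8, so the KNP values enclosed the YS values. The means were 4541 ± 2476 and 5317 ± 1003 (SD, n = 4 per breed), with a log2 difference of −0.39 (SE 0.36, 95% interval −1.18 to 0.39, limma adjusted p = 0.643). The interval spans both directions. Without KNP replicate 3 the difference was −0.04 and without KNP replicate 1 it was −0.68, neither of them past the threshold.

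ASS1, which condenses citrulline with aspartate, was at 29661, 23022, 22196 and 26946 in KNP and at 25004, 32253, 21358 and 18434 in YS. Here YS was the more variable breed, at 24262 ± 5967 against 25456 ± 3486 in KNP (SD, n = 4 per breed), and the groups overlapped throughout. The log2 difference was 0.09 (SE 0.18, 95% interval −0.30 to 0.48, limma adjusted p = 0.846). Probe sets as bright as ASS1 mostly lay lower in KNP, and ASS1 exceeded 95.2% of the 167 in its band. After quantile normalization, which removes that shift, the difference was 0.49, with an unadjusted p of 0.0134 and an adjusted p of 0.231 in limma. Without YS replicate 4, the lowest animal, the difference as deposited was −0.03.

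**Figure D2:**
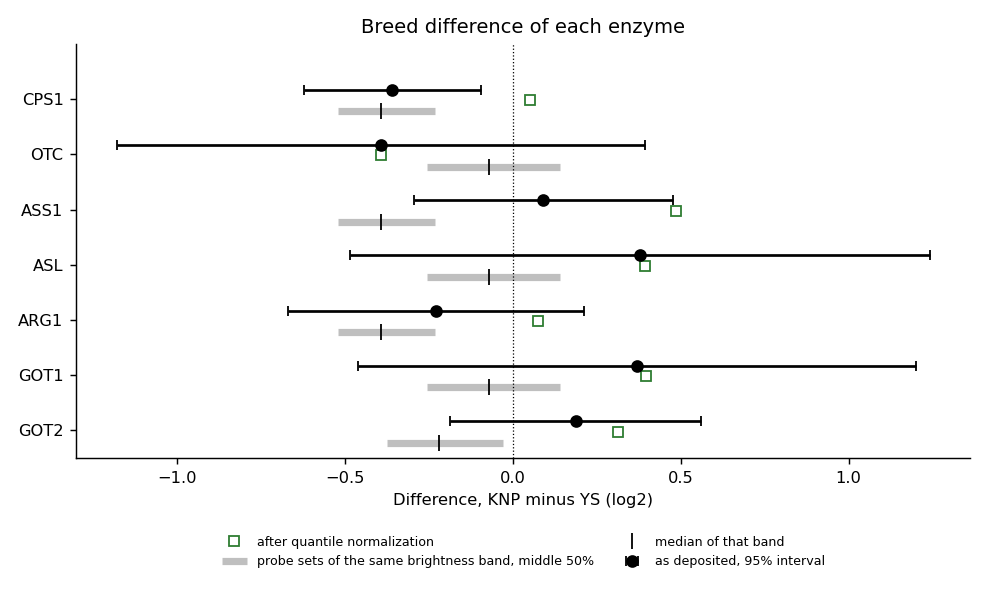
Difference between the breeds (horizontal axis, log2, KNP minus YS) of each enzyme as deposited with its 95% interval (black), after quantile normalization (green squares), and of all probe sets in the same band of brightness (grey bar for the middle 50%, tick for the median). The interval of CPS1 alone leaves out 0, and its point lies inside the grey bar.

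ASL, which yields arginine and fumarate, differed more between KNP animals than between the breeds. It was at 10082, 2019, 4496 and 6133 in KNP and at 3697, 4740.1, 2797 and 3998 in YS. KNP replicate 1 was the highest and KNP replicate 2 the lowest of all 8 animals, 4.99-fold apart, against 1.69-fold in YS. The means were 5683 ± 3386 and 3808 ± 804 (SD, n = 4 per breed), with a log2 difference of 0.38 (SE 0.39, 95% interval −0.48 to 1.24, limma adjusted p = 0.690). Without KNP replicate 2 the difference was 0.80 and without KNP replicate 1 it was 0.03 (limma adjusted p = 0.181 and 0.980).

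ARG1, which hydrolyses arginine to urea, stood at 19304, 12039, 16716 and 17893 in KNP and at 19819, 26692, 15365 and 16093 in YS. KNP replicate 2 was the lowest and YS replicate 2 the highest animal, and the other 6 lay between 15365 and 19819 with the breeds mixed. The means were 16488 ± 3149 and 19492 ± 5181 (SD, n = 4 per breed), with a log2 difference of −0.23 (SE 0.20, 95% interval −0.67 to 0.21, limma adjusted p = 0.629). The difference was −0.06 without YS replicate 2 and −0.08 without KNP replicate 2, and after quantile normalization it turned to 0.08.

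GOT1, the cytosolic aspartate transaminase, was at 11982, 2515, 6687 and 7643 in KNP and at 5236, 5802, 3812 and 4754 in YS. As with ASL, KNP replicate 1 was the highest and KNP replicate 2 the lowest of the 8, and the other 2 KNP animals lay above all YS animals. The means were 7207 ± 3885 and 4901 ± 843 (SD, n = 4 per breed), with a log2 difference of 0.37 (SE 0.38, 95% interval −0.46 to 1.20, limma adjusted p = 0.686). Without KNP replicate 2 it was 0.81 (limma adjusted p = 0.111), and without KNP replicate 1 it was 0.06.

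GOT2, the mitochondrial transaminase, stood at 9953, 13625, 8945 and 8129.98 in KNP and at 9467, 9644, 7726 and 8298 in YS. KNP replicate 2, the lowest animal in GOT1, was the highest here, and the remaining 7 animals lay between 7726 and 9953. The means were 10163 ± 2425 and 8784 ± 924 (SD, n = 4 per breed), with a log2 difference of 0.19 (SE 0.17, 95% interval −0.19 to 0.56, limma adjusted p = 0.640), and without KNP replicate 2 the difference was 0.04.

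The animals' profiles thus differed from enzyme to enzyme. KNP replicate 2 was the lowest of the 8 in 4 of the 7 enzymes (CPS1, ASL, ARG1 and GOT1), where it was the lowest in 16.7% of all probe sets tested, and it was the highest in GOT2. KNP replicate 1 was the highest in OTC, ASL and GOT1 and was the highest in 8.79% of all probe sets. These shares over all probe sets are not matched for brightness. In the 31 tested genes around the cycle, described below, KNP replicate 2 was the lowest in 4 and YS replicate 4 in 8. KNP replicate 1 was the highest in 7 of those 31. The SD between KNP animals on the log2 scale was 0.97 for ASL, 0.95 for GOT1 and 0.88 for OTC, above that of 96.9%, 96.6% and 95.7% of all probe sets. In YS the same 3 enzymes had SDs of 0.32, 0.26 and 0.28, above 60.9%, 47.9% and 52.8% of probe sets. CPS1 had the smallest SD of the 7 in both breeds, at 0.18 in KNP and 0.07 in YS. A difference in spread between the breeds was not tested.

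ASL and GOT1 followed each other across the animals. Over the 8 arrays, each gene centred on its own mean, GOT1 had the smallest root mean square difference from ASL of 5422 other genes, at 0.11 on the log2 scale, where ASL itself varied with an SD of 0.65. The next genes were THY1 at 0.26 and DBT, a subunit of the branched-chain keto acid dehydrogenase, at 0.27. In the reverse direction, looked at after this was seen, ASL was the gene most like GOT1. The log2 ratio of ASL to GOT1 within an array lay between −0.57 and −0.25 on all 8. GOT1 was still the nearest gene without KNP replicate 1, without KNP replicate 2 and after quantile normalization, ranked 6 without both animals, 2 over the KNP arrays alone and 43 over the YS arrays alone. These checks were chosen after the likeness was seen, and the 2 extreme KNP animals carry much of it.

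**Figure D3:**
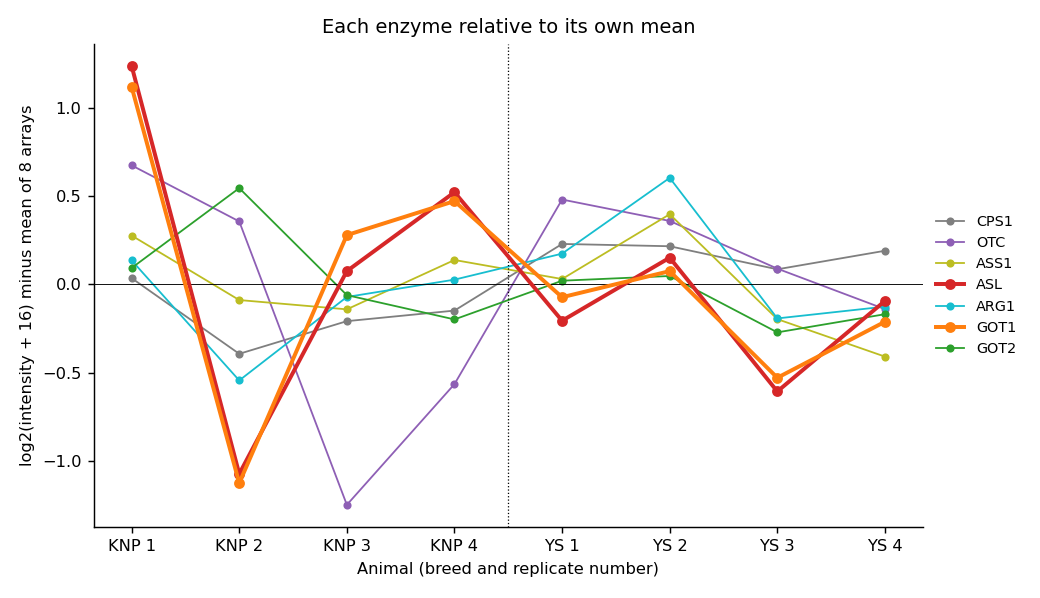
log2(intensity + 16) of each enzyme minus its mean over the 8 arrays (vertical axis) for the 4 KNP and 4 YS animals (horizontal axis); lines join the values of 1 enzyme and the order of animals has no meaning. The thick lines of ASL and GOT1 run together with KNP replicate 1 at the top and KNP replicate 2 at the bottom, while OTC has its lowest value in KNP replicate 3.

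The other urea cycle enzymes each had different nearest genes by the same measure. For CPS1 these were ESD at 0.07, CTNNBL1 at 0.07 and the mitochondrial chaperone HSPD1 at 0.07, and for OTC they were NUSAP1 at 0.20, FGD4 at 0.26 and SUPT3H at 0.26. RGL2 at 0.10, NSMCE4A at 0.11 and UTP18 at 0.13 were nearest to ASS1, and CAMK2D, DNAJA2 and ATP5E, each at 0.14, were nearest to ARG1. No other urea cycle member was among the 3 nearest genes of CPS1, OTC, ASS1 or ARG1. A gene that varies little has close neighbours by this measure, so its size is comparable only within 1 enzyme.

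A ratio of 2 enzymes within 1 array does not depend on a constant scaling factor for that array, but a scaling that varies with brightness moves it. Of the 21 pairs of members, 1 had a log2 ratio that did not overlap between the breeds, CPS1 to GOT2, and over all pairs of genes tested 10.1% show no overlap. The ratio of CPS1 to GOT2 was 1.38, 0.50, 1.29 and 1.49 on the log2 scale in KNP and 1.65, 1.61, 1.80 and 1.80 in YS, a difference of −0.55 between the breed means. After quantile normalization that difference was −0.26 and the breeds overlapped, at 0.52 to 1.68 in KNP and 1.50 to 1.62 in YS. For the transaminase pair, the log2 ratio of GOT1 to GOT2 ran from −2.44 in KNP replicate 2 to 0.27 in KNP replicate 1, and only from −1.02 to −0.73 in YS, inside the KNP range.

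Around the cycle, 31 genes of 4 lists were tested with 1 probe set each, and 0 passed in limma after adjustment, where 1.03% of all probe sets did. At an unadjusted p under 0.05 there were 9 of the 31, a larger share than the 15.1% over all probe sets. The lists were chosen with earlier results of these data known. Of the 9, 1 in each list was lower in KNP. The rest were higher, 2 in glutamine and glutamate handling and 3 among the regulators. The breeds did not overlap in 4 of the 31 (12.9%), where 9.68% of all probe sets tested do not. Of 12 cycle partners and carriers 4 had a tested probe set, and 2 of these had a positive difference (median −0.01). NAGS, which makes the activator of CPS1, and the carriers SLC25A13 and SLC25A15 had no probe set with that single symbol. AGMAT, agmatinase, which splits agmatine to urea and putrescine, was at 8153, 8722, 4640.1 and 7302 in KNP and at 9650.1, 10272, 13195 and 10671 in YS. All KNP values of AGMAT lay below all YS values, with a log2 difference of −0.63 (SE 0.20, limma adjusted p = 0.166). ARG2, the mitochondrial arginase, was at 1307, 435, 1245 and 1719 in KNP and at 681, 1087, 881 and 731 in YS, with overlap and a log2 difference of 0.34 (SE 0.36, limma adjusted p = 0.702). Its other tested probe set showed 0.46, and one too dim to be tested showed −0.46.

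Among 17 genes of glutamine and glutamate handling, 9 were tested, 5 with a positive difference (median 0.05). GLUL, the ammonia scavenger around the central vein, was at 3024, 3563, 2593 and 3173 in KNP and at 3926, 4302, 5126 and 5533 in YS. The breeds did not overlap, with means of 3089 ± 401 and 4722 ± 737 (SD, n = 4 per breed) and a log2 difference of −0.61 (SE 0.16), which after quantile normalization was −0.61. Its adjusted p in limma was 0.108, so GLUL did not pass, and its other tested probe set showed −0.02 and a dim one −0.19. OAT, which moves ornithine out of the cycle towards glutamate, was at 6938, 1027, 2131 and 3391 in KNP and at 1680.05, 842, 1190.5 and 455 in YS. Only KNP replicate 2 overlapped with YS, and the log2 difference was 1.50 (SE 0.53, limma adjusted p = 0.216). KNP replicate 1 was the highest and KNP replicate 2 the lowest KNP animal in OAT, as in CPS1, ASL, ARG1 and GOT1. The surrounding genes GPT, RHBG, PPARGC1A and FTCD shared these extremes, and most of the others did not. The share of all probe sets with these extremes was not counted.

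**Figure D4:**
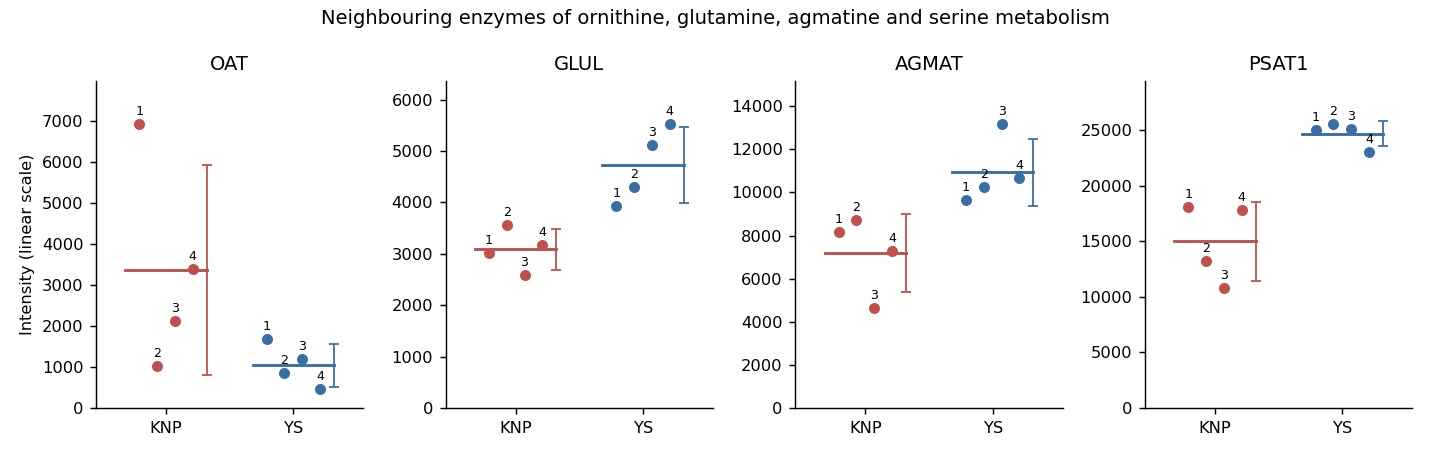
Intensity on a linear scale (vertical axis) of OAT, GLUL, AGMAT and PSAT1 in each KNP and YS liver; points are animals with their replicate number, lines are breed means and bars the SD. GLUL, AGMAT and PSAT1 show no overlap between the breeds, with KNP lower, and OAT overlaps through KNP replicate 2.

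Of 17 enzymes that pass amino groups or nitrogen from other amino acids, 6 were tested, 4 with a positive difference (median 0.09). PSAT1, a transaminase of serine synthesis that uses glutamate, was at 18130, 13255, 10788 and 17801 in KNP and at 25052, 25606, 25147 and 23046 in YS. It did not overlap and had a log2 difference of −0.75 (SE 0.17, limma adjusted p = 0.0678), and of −0.43 after quantile normalization. SHMT1, which interconverts serine and glycine, showed −0.24 with its brightest probe set (SE 0.15, limma adjusted p = 0.499) and 0.70 with the other, whose breeds did not overlap, so its direction is not settled. GPT, alanine transaminase, was at 565, 131, 318 and 391 in KNP and at 318, 917, 51.4 and 50.3 in YS, with KNP replicate 2 and YS replicates 3 and 4 below the medians of their arrays, with overlap and a log2 difference of 0.76 (SE 0.77, limma adjusted p = 0.682).

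Of 17 regulators of urea cycle genes, 12 were tested, 7 with a positive difference (median 0.06). HNF4A, a nuclear receptor that is a main driver of hepatocyte genes, OTC among them, was at 7972, 7888, 8091 and 4599 in KNP and at 10669, 9696, 9636 and 8988 in YS. The breeds did not overlap, with a log2 difference of −0.48 (SE 0.19, limma adjusted p = 0.253). This difference was −0.28 without KNP replicate 4 and −0.40 after quantile normalization. The second probe set of HNF4A showed −0.08. NR3C1, the glucocorticoid receptor, was at 394, 346, 393 and 273 in KNP and at 297, 250.4, 226 and 178 in YS, with a log2 difference of 0.54 (SE 0.20, limma adjusted p = 0.249) and overlap through KNP replicate 4. Its other tested probe set showed 0.43, and those too dim to be tested showed −0.11 and −0.05.

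Markers of the lobular zones were measured beside these enzymes, and their part in the values above was not tested. Of 10 periportal markers 5 were tested, and 1 was called higher in KNP (SDS) and 1 lower (ALB), where 1.03% of all probe sets were called. The others tested, PCK1 at 0.02, PIGR at −0.19 and CDH1 at −0.23, were not called. SDS was at 883 to 3818 in KNP and 7.19 to 253 in YS, with YS replicates 1 and 4 below the medians of their arrays. Its log2 difference was 4.07 (limma adjusted p = 0.0336), and 4.09 after quantile normalization (limma adjusted p = 0.0642). The summed intensity of the 5 markers was 68429 to 88024 in KNP and 103033 to 116930 in YS. Most of that sum was ALB, whose difference of −0.69 was −0.06 after quantile normalization; without ALB the sums overlapped, at 16344 to 29521 in KNP and 18797 to 21011 in YS. Of 13 pericentral markers 7 were tested and 0 called. At an unadjusted p under 0.05 in limma there were 2 of the 7, against 15.1% of all probe sets. These were OAT, higher in KNP, and GLUL, lower in KNP, both already given above. The summed intensity of the 7 was 10394 to 50014 in KNP and 55541 to 67570 in YS. Without CYP2E1, the brightest of them, these sums overlapped as well, at 5718 to 14544 in KNP and 9689.62 to 13872 in YS. The lowest of the full sums was that of KNP replicate 2, in which CYP2E1 was at 555 against 32831 to 39858 in the other KNP animals. Among other cell types, 7 of 11 macrophage markers had a probe set (sum 16371 to 22326 in KNP, 9303 to 20019 in YS) and 5 of 7 bile duct markers (672 to 2272 and 667 to 1117). The ranges also overlapped for the endothelial (7 of 10 genes), stellate (8 of 9), T and NK cell (7 of 10), B cell (1 of 5), neutrophil (4 of 6) and red blood cell (3 of 6) markers. While 0 markers were at 0 on all arrays, several were dim. Below the median of every array lay 3 of the 5 bile duct, 3 of the 7 T and NK cell and 2 of the 4 neutrophil markers. So did 1 of the 7 macrophage markers and the only B cell marker.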

How the data were processed

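Liver RNA of 4 KNP and 4 YS pigs was measured on 1 array each. The authors deposited linear intensity values, 1 per probe set and array. The submitters' processing notes name GCOS 1.3; how signal and background were computed is not given in the sources used here. Each array was scaled by the authors, as the values show, since the mean between the percentiles 2 and 98 was about equal on all arrays.

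Probe sets were named from the array annotation, single symbols only. The 124 controls were left out, log2(intensity + 16) was taken, the lower 40% of probe sets by mean were left out, and 14399 were tested with limma 3.58.1 in R 4.3.3 (lmFit, eBayes with intensity trend, two-sided, Benjamini-Hochberg adjustment over all of them, threshold 0.05). SE and 95% intervals come from that fit. The fit was tested on simulated data with known changes. It called 6.12% of the tested probe sets changed 1.5-fold, 53.3% of those changed 2-fold and 93.2% of those changed 4-fold. The member differences, 1.06-fold (ASS1) to 1.31-fold (OTC), were below the smallest change simulated. The number of arrays limits the precision.

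A gene of a list was represented by its brightest tested probe set; summed marker intensities use the brightest of all. Named were all members, the 2 genes of each list with the smallest p and GLUL, NAGS, SLC25A13, SLC25A15, ARG2, GPT and OAT; 3 nearest genes were taken per urea cycle enzyme. SDS, ALB and CYP2E1 were named with their values known. So were the genes that shared the KNP extremes of OAT and the other tested periportal markers. The members and lists were chosen with earlier results of these data known. The labels call the arrays biological replicates, and the numbers name different animals in the breeds. Alternatives were pseudocounts of 1 and 64, 3 other scalings, other filters, no trend, array weights, a replicate block and each animal left out; sums without ALB or CYP2E1 and the CPS1 to GOT2 ratio after quantile normalization were added after seeing the data.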

Additional observations from a re-analysis of the deposited data

Results flagged for a closer look

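The KNP replicate 4 value of HNF4A, 4599, lay far from the other KNP animals, which were between 7888 and 8091. Of 32 groups of 4 animals looked at in this way, 1 stood out, and chance gives about 1 in 20.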

How the results depend on the processing

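No member and no gene of the 4 surrounding lists passed the threshold under any alternative listed in the processing section. Of 126 recomputed member differences (18 for each of 7 enzymes), 122 kept their sign and 4 turned: CPS1 to 0.0499 and ARG1 to 0.0759 after quantile normalization, ARG1 to 0.0410 after cyclic loess normalization, and ASS1 to −0.0308 without YS replicate 4 (range −0.0308 to 0.238 with 1 animal left out). The 149 calls over all probe sets became 14 after quantile normalization, 95 after median centring, 14 after cyclic loess normalization, 35 with no filter, 13 with no intensity trend and 8 with the replicate block, and 8 to 119 with 1 animal left out. Higher calls were 40.9% of all calls as deposited and 71.4% after quantile normalization. Deviations of same-numbered animals of the breeds correlated across probe sets at −0.02 to 0.05 over the 4 pairs. Animals of different numbers correlated at −0.09 to 0.13. The labels name no pairing, and with 4 animals per breed these correlations cannot exclude one. With the replicate block the limma adjusted p of CPS1 was 0.271. The root mean square difference of ASL and GOT1 lay between 0.10 and 0.12 in the alternatives added after seeing the data. The 4 arrays per breed limit the precision, and a missed threshold does not show equal levels.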
